A study of Rattus norvegicus with 24 samples.

Results

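Kruppel-like factors are transcription factors with a carboxy-terminal array of C2H2 zinc fingers that bind CACCC elements and GC-rich boxes in DNA. The members described here are Klf2, Klf4, Klf6, Klf9, Klf10 and Klf15, taken by gene name from the rat arrays of a study of MK-801, an open-channel blocker of NMDA glutamate receptors. They were measured by 9 of the 41012 probes, with 1 probe each for Klf2, Klf4 and Klf15 and 2 probes each for Klf6, Klf9 and Klf10. All 9 probes were among the 27690 kept for testing, and on all 24 arrays each was clear of background in both colours and not saturated.

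As background, Klf2 and Klf4 are best known from endothelium, where blood flow raises them through the ERK5 kinase and MEF2 factors, and where they favour anticoagulant and anti-inflammatory genes. Klf6 and Klf10 are early response genes, Klf6 after tissue injury and growth factor signals and Klf10 after transforming growth factor beta. Klf9 and Klf15 are induced by glucocorticoids, Klf9 also by thyroid hormone, and Klf15 is known for its control of amino acid breakdown in liver and muscle.

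Male Wistar rats aged 10 weeks received saline or MK-801 by intraperitoneal injection, and brains were removed 40 min later and dissected into cerebral cortex, hippocampus, amygdala, ventral striatum, hypothalamus and midbrain. Of the 9 rats, 3 received saline and the others received MK-801 at 0.08 mg per kg (low dose) or 0.16 mg per kg (high dose). Every array set MK-801 RNA of a region in 1 dye against saline RNA of the same region in the other dye, and 2 arrays with exchanged dyes made a dye swap for each of the 6 regions and 2 doses. Which rat, or pool of rats, an array stands for is not stated in the labels. A dye swap therefore counted as 1 value, and the regions served as replicates. The p-values below thus rest on how regions vary, and say nothing of how rats vary. The 2 doses share 1 group of saline rats, whose own spread does not enter a test of the ratio against 0.

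Per array, 55.2% to 78.5% of probes passed the scanner's background test in both colours. In the saline RNA, Th was highest in the midbrain, Drd1, Drd2, Adora2a and Ppp1r1b in the ventral striatum, and Pmch and Oxt in the hypothalamus, whereas Hcrt, a hypothalamic peptide, was highest in the cerebral cortex by 0.21 log2 units. Wfs1 was highest in the hippocampus. Each region lay on its own slide, and regions were scanned in pairs on 3 days, with midbrain and amygdala, ventral striatum and cerebral cortex, and hippocampus and hypothalamus together. Across 24618 probes, swap partners had correlations of -0.503 to -0.0999 once both were turned to MK-801 over saline. A single array therefore enters a test here only with its partner, except in alternative fits given below. Counts of single arrays above 0 are a description, as the arrays are not independent replicates.

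The probe sequences bear on what each value measures, and 3 are shown, that of Klf2 for its zinc finger codons and those of Klf6 and Klf9 that missed the test where the gene's other probe passed it. Of the 9 probes, those of Klf15 and A_43_P12535 of Klf10 had a stop codon in all 3 frames, and the others had 1 or 2 frames without one. The Klf2 probe (A_44_P472661, chr16:17942542-17942601 of rn3, minus strand) reads into the zinc fingers, the part of the protein shared by the family, and its capitals mark the codons for the pair of cysteines of a finger. No gene model was used to choose a frame. The Klf6 probe A_42_P677623 (chr17:75592383-75592442, minus strand) and the Klf9 probe A_44_P322590 (chr1:226585750-226585809, plus strand) each had 1 of 3 frames without a stop codon and carry no marked part.
Klf2: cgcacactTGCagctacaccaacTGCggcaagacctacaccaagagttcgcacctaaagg
Klf6: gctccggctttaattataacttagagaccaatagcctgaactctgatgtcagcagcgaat
Klf9: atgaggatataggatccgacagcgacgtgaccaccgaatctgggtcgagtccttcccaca
Over the 33 pairs of probes of different members, the best ungapped alignment matched 24 of 60 bases at most. The Klf2 probe was not compared with full transcripts of other family members, so hybridization of related zinc finger sequences to it was not tested.

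The other probes were given on rn3 at chr5:73452107-73452166 for Klf4 (minus strand), chr17:75589643-75589702 for the second Klf6 probe (A_42_P677628, minus strand), and chr1:226609648-226609707 for the second Klf9 probe (A_43_P13064, plus strand). Klf10 was probed at chr7:73842027-73842086 (A_43_P12535) and chr7:73842903-73842962 (A_44_P526729), both on the minus strand, and Klf15 at chr4:124971236-124971295 (plus strand). The starts of the 2 probes lay 23898 bases apart for Klf9, 2740 for Klf6 and 876 for Klf10. No gene model of this build was used, so exon and UTR positions of the probes are not given.

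Promoter windows of RefSeq (assembly GRCr8, 250 bases before to 50 after the start site) were had for Klf4, Klf6, Klf9 and Klf15. They were searched on both strands for a MEF2 site, a serum response element (CArG box), the full cyclic AMP response element and its core TGACG, the full glucocorticoid response element and its arm TGTTCT, the Kruppel-like factor element CACCC, the GC box GGGCGG, and the TATA box TATAAA. The core and the arm lie within the full elements, so these searches overlap. Klf6 held a CArG box, the binding site of serum response factor, starting 201 bases before the start site (first base at -201), at chr17:69458660-69458689 on the minus strand, with the match in capitals.
Klf6 promoter: aataggaaggCCTTTAATGGagaggctcgg
A CArG box was present in 1.64% of all 33469 windows. TGACG was found once in Klf9 and at 2 places in Klf15 (21.2% of windows), and CACCC once each in Klf9 and Klf15 (54.9%). GGGCGG was found once in Klf6 (33.1%), and TATAAA at 2 places in Klf4 (14.2%), both on the strand opposite to the gene. No window of these 4 genes held the letters of the MEF2 site (3.29% of windows), the full cyclic AMP response element (1.83%), the full glucocorticoid response element (0.0149%) or TGTTCT (20.7%).

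Klf2 rose at both doses, and more at the high dose than at the low dose, with a ratio above 0 in every region. At the high dose its log2 ratio of MK-801 to saline was 0.46 in the midbrain, 0.92 in the amygdala, 1.01 in the ventral striatum, 1.31 in the cerebral cortex, 0.77 in the hippocampus and 0.50 in the hypothalamus. At the low dose the same regions had 0.22, 0.34, 0.55, 0.99, 0.43 and 0.19. All 24 single arrays were above 0 (0.14 to 1.43), and in 6 of 6 regions both high dose arrays lay above both low dose arrays. The cerebral cortex was highest at both doses, and midbrain and hypothalamus were lowest. The mean over regions was 0.83 ± 0.32 at the high dose (SD, n = 6, 1.78-fold, limma adjusted p = 0.000364) and 0.45 ± 0.29 at the low dose (n = 6, 1.37-fold, adjusted p = 0.00843). The difference between doses was 0.37 ± 0.12 (n = 6, adjusted p = 0.000364, 95% interval 0.28 to 0.47). Mean ratios with MK-801 in Cy5 and in Cy3 were 0.69 and 0.60. The low dose call was lost with the scanner's own ratios (adjusted p = 0.0543), the deposited value table (0.0567) and a robust prior that follows intensity (0.13), and within the scan day of midbrain and amygdala (0.28, adjusted p = 0.221).

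At the high dose Klf4 had larger ratios than Klf2 in all 6 regions, with the same order of regions, whereas at the low dose it was below Klf2 in the midbrain and hippocampus. Its high dose values were 0.48 in the midbrain, 1.32 in the amygdala, 1.35 in the ventral striatum, 1.78 in the cerebral cortex, 1.08 in the hippocampus and 0.69 in the hypothalamus. The low dose values were -0.04, 0.51, 0.66, 1.29 and 0.31 in the first 5 of these, and the hypothalamus had no low dose value because 1 spot carried an outlier flag. Again the cortex was highest and the midbrain lowest. Klf4 rose at the high dose (1.12 ± 0.48, n = 6, 2.17-fold, limma adjusted p = 0.000582), and the low dose mean of 0.55 ± 0.49 (n = 5, 1.46-fold) missed the threshold (adjusted p = 0.0621). Without the midbrain the low dose mean was 0.69 and passed (adjusted p = 0.0118). It also passed without array number 4 (0.86, adjusted p = 0.00071), which leaves 1 dye orientation at that dose. A fit of single arrays with dye orientation as a term and region as a random block passed as well (0.54, adjusted p = 0.00425). That fit, called the replicate block below, counts the 2 arrays of a swap as separate observations. In all, the low dose mean passed in 5 of 19 alternatives and missed in 14. Within the scan day of midbrain and amygdala it was 0.24 and missed. Within that of ventral striatum and cortex it was 0.98 and passed (limma adjusted p = 0.0184). The high dose call was lost with the intensity-following robust prior (adjusted p = 0.0719). The dose difference of 0.65 ± 0.14 (n = 5, adjusted p = 2.22e-05, 95% interval 0.55 to 0.76) was above 0 in 5 of 5 regions. The dyes disagreed on the size, with a mean of 1.14 with MK-801 in Cy5 and 0.54 with MK-801 in Cy3. The single array below 0 was a low dose midbrain array at -0.47, whose dye partner was at 0.40.

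**Figure D1:**
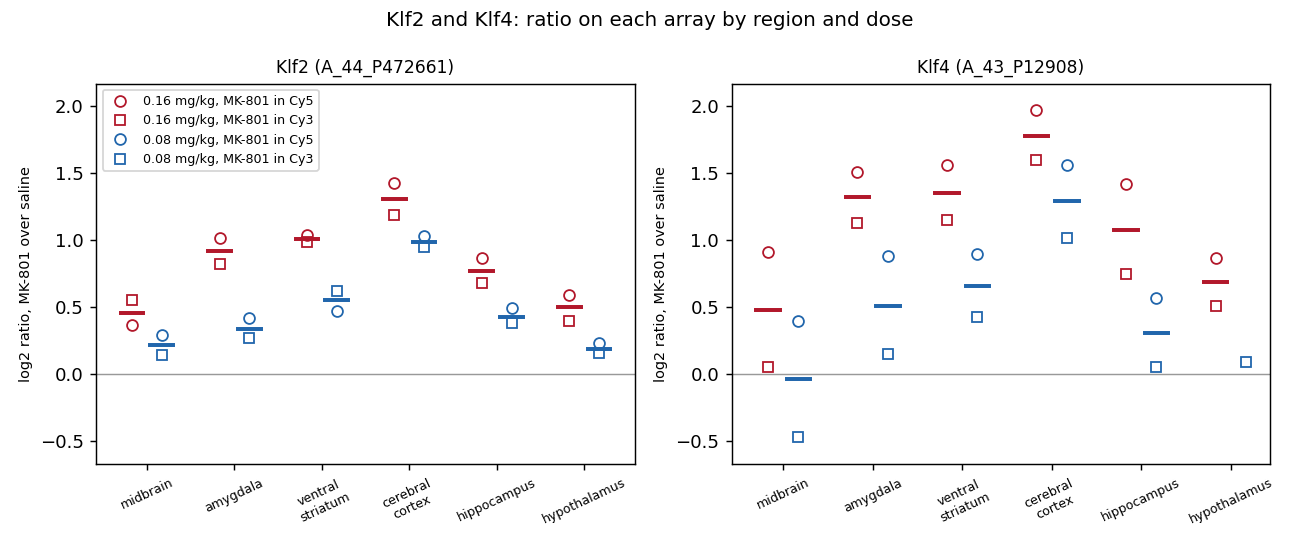
Log2 ratio of MK-801 to saline for Klf2 (left) and Klf4 (right) by region, with 1 open symbol per array (circles with MK-801 in Cy5, squares in Cy3), 0.16 mg per kg in red, 0.08 mg per kg in blue, and bars for the mean of a dye swap. Klf2 lies above 0 on all 24 arrays and Klf4 on 22 of 23, the cortex is highest in both, and the 2 dyes lie farther apart for Klf4.

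Averaged over both doses, 4 of the 9 member probes passed an adjusted p of 0.05, all 4 of them higher than saline, against 2.45% of the 27267 probes tested. At the high dose 4 of 9 passed, against 2.01% of all probes, at the low dose 3 of 9, against 2.42%, and for high minus low 2 of 9, against 1.44%. At an unadjusted p under 0.05 the members numbered 7, 7, 6 and 4 of 9 in these comparisons. All probes at that threshold numbered 3687 of 27267, 3296 of 27530, 3574 of 27531 and 2938 of 27267. The median log2 ratio of the 9 probes was 0.13 over both doses, 0.14 at the high dose and 0.11 at the low dose. The median of all probes was 0.00 in each comparison. The members were chosen with earlier results of these data known. Their counts and medians beside all probes are therefore a description, not a test of the family. With the replicate block 7 of 9 members passed over both doses, and so did 1410 probes in place of 669. That fit has single arrays as observations, dye orientation as a term and region as a random block.

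Klf2 over both doses was at 0.64 ± 0.30 (n = 6, limma adjusted p = 0.00164), and Klf4 at 0.88 ± 0.48 (n = 5, adjusted p = 0.00584). Within the scan days of midbrain and amygdala, of ventral striatum and cortex, and of hippocampus and hypothalamus, Klf2 had 0.48, 0.97 and 0.47. All 3 passed, but each fit within a day, here and elsewhere, rests on a single pair of regions. Klf4 had 0.57 within the first of these days and 1.27 within the second, and both passed. The third day had no value for Klf4, for want of the hypothalamus. The dose difference of Klf2 within these days was 0.41, 0.39 and 0.32, and only the second passed (adjusted p = 0.106, 0.00991 and 0.057), and that of Klf4 was 0.66 and 0.59, both of which passed. The calls over both doses were lost for both genes where the prior variance followed intensity and was estimated robustly (Klf2 adjusted p = 0.0671, Klf4 adjusted p = 0.198), and for Klf4 also with the scanner's own ratios (0.91, adjusted p = 0.0552) and the deposited value table (0.91, adjusted p = 0.058).

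**Figure D2:**
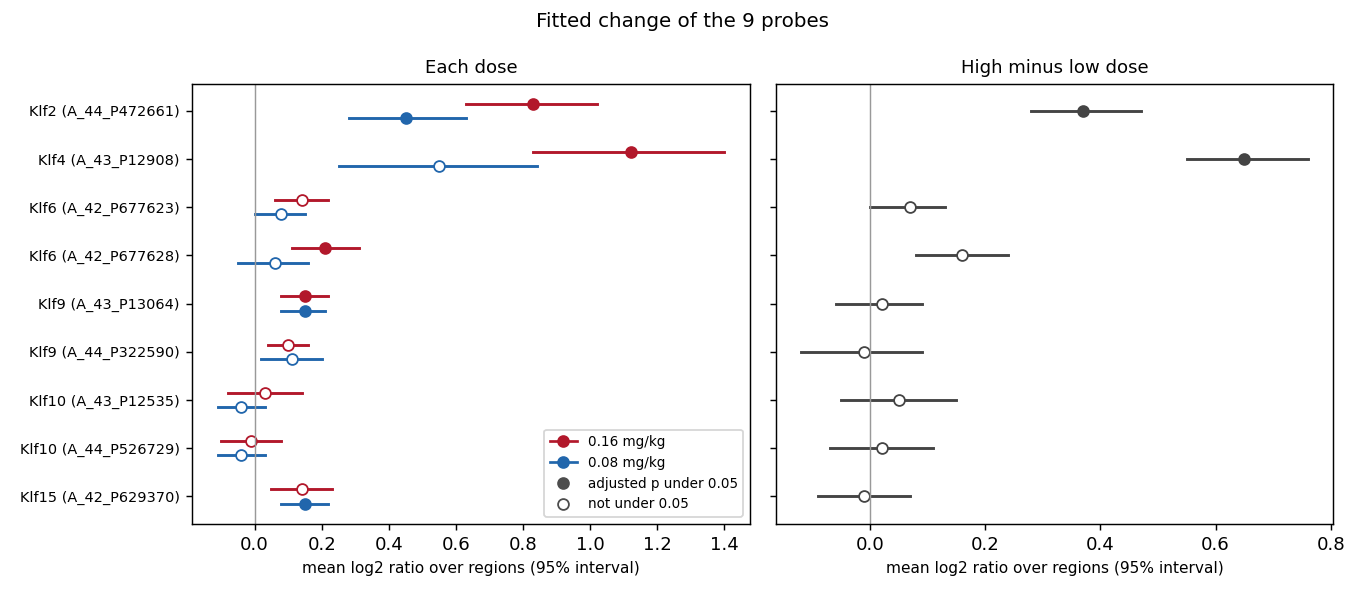
Mean log2 ratio over regions with its 95% interval from the limma fit for each of the 9 probes, at each dose on the left (red 0.16 mg per kg, blue 0.08 mg per kg) and as high minus low on the right; filled points passed an adjusted p of 0.05. Klf2 and Klf4 stand at 0.45 to 1.12 and have the only filled points for the dose difference, and the other probes lie between -0.04 and 0.21.

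The rise from the low to the high dose was accompanied by other differences between the 2 sets of arrays. Transcripts of red blood cells moved with dose: Hbb, a haemoglobin chain, differed by 0.88 ± 0.26 (n = 6, limma adjusted p = 2.41e-05), Alas2, an enzyme of haem synthesis, by 0.61 ± 0.09 (adjusted p = 9.37e-07) and Slc4a1, which carries anions across the red cell membrane, by 0.26 ± 0.15 (adjusted p = 0.0121). Against saline, 3 of these 3 rose at the high dose and 2 of 3 fell at the low dose. All 8 meningeal and fibroblast markers had a positive high minus low value (median 0.28, range 0.13 to 0.48), with 0 of 8 passing and 3 at an unadjusted p under 0.05. Of the 13 endothelial markers 0 passed for the dose difference (1 at an unadjusted p under 0.05, median 0.02), and of 7 pericyte and smooth muscle markers 0 passed (3 unadjusted, median 0.05). Of the 8 microglial markers 2 were lower at the high dose (median -0.12). The part of these differences in the dose difference of Klf2 and Klf4 was not tested. In dissected tissue, more cells of a type and more RNA per cell cannot be told apart.

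Klf6 changed less, and its ventral striatum values were the highest by both probes. The brighter probe, A_42_P677628, had high dose log2 ratios of 0.01 in the midbrain, 0.22 in the amygdala, 0.47 in the ventral striatum, 0.25 in the cortex, 0.13 in the hippocampus and 0.20 in the hypothalamus. Its low dose values were -0.11, 0.07, 0.22, 0.18 and -0.08, with none for the hypothalamus. All 12 high dose arrays were above 0, but only 7 of 11 low dose arrays. This probe rose at the high dose (0.21 ± 0.15, n = 6, limma adjusted p = 0.0398). The call was lost when any of the amygdala, ventral striatum, cortex, hippocampus or hypothalamus was left out (adjusted p = 0.0624 to 0.132), and the value was 0.16 without the ventral striatum. It was also lost with the scanner's own ratios (0.147), the deposited value table (0.151), median centring (0.16, adjusted p = 0.831), offset 10 (0.0846) and the robust prior (0.0603), in all in 12 of 22 alternatives. Within the 3 scan days, in the order above, it was 0.11, 0.36 and 0.16, and only the day of ventral striatum and cortex passed (adjusted p = 0.857, 0.00547 and 0.313).

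The second Klf6 probe, A_42_P677623, gave 0.30 and 0.23 in the ventral striatum at the high and low dose and 0.03 and -0.03 in the midbrain. Its means were 0.14 ± 0.10 at the high dose (n = 6, limma adjusted p = 0.0758, and 0.0281 with the replicate block) and 0.08 ± 0.09 at the low dose (adjusted p = 0.348). With MK-801 in Cy3 all 12 arrays were above 0, and with MK-801 in Cy5 4 of 12 were. Over both doses the probes had 0.13 ± 0.16 (A_42_P677628, n = 5, adjusted p = 0.234) and 0.11 ± 0.09 (A_42_P677623, n = 6, adjusted p = 0.12). With the replicate block, which counts single arrays in place of swaps, both passed (adjusted p = 0.00476 and 0.00565). The dose difference of A_42_P677628, 0.16 ± 0.07 (n = 5), was above 0 in 5 of 5 regions and did not pass (adjusted p = 0.0684).

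Klf10 did not pass the test at either dose by either probe. Its means over both doses were 0.00 ± 0.11 (A_43_P12535, n = 5, limma adjusted p = 0.981, 95% interval -0.08 to 0.08) and -0.03 ± 0.09 (A_44_P526729, n = 6, adjusted p = 0.792, 95% interval -0.09 to 0.04). At the high dose the cerebral cortex had the highest value by both probes (0.27 and 0.21). At the low dose the cortex was at 0.04 and 0.07, and by A_43_P12535 the hippocampus was higher (0.09). In the hypothalamus the same probes had -0.10 and -0.20 at the high dose. A single region at 1 dose rests on 1 dye swap, so these regional differences have no test. The 2 arrays of a swap lay up to 0.12 from their mean for A_43_P12535 and up to 0.20 for A_44_P526729.

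Klf9 was slightly higher than saline at both doses by its brighter probe. A_43_P13064 had high dose values of 0.18 in the midbrain, 0.06 in the amygdala, 0.24 in the cortex, 0.17 in the hippocampus and 0.12 in the hypothalamus, with none for the ventral striatum. At the low dose it had 0.12, 0.02, 0.22 (ventral striatum), 0.19, 0.19 and 0.14. In all, 22 of 23 arrays were above 0, and the amygdala was lowest at both doses. The means were 0.15 ± 0.07 at the high dose (n = 5, 1.11-fold, limma adjusted p = 0.0336) and 0.15 ± 0.07 at the low dose (n = 6, adjusted p = 0.0198), with a dose difference of 0.02 ± 0.04 (n = 5, 95% interval -0.06 to 0.09, adjusted p = 0.893). The high dose call was lost without the midbrain, cortex, hippocampus or hypothalamus (adjusted p = 0.0681 to 0.145), and the low dose call without the ventral striatum, cortex, hippocampus or hypothalamus (adjusted p = 0.0627 to 0.0885). With median centring the high dose value was 0.08 (adjusted p = 0.888) and the low dose value 0.14 (adjusted p = 0.0869). Both calls were also lost with the scanner's own ratios (0.132 and 0.096), the deposited value table (0.136 and 0.0986) and offset 10 (0.0813 and 0.0519), and within each scan day that gave a value.

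The second Klf9 probe, A_44_P322590, had means of 0.10 ± 0.05 at the high dose (n = 6, adjusted p = 0.0906 by limma) and 0.11 ± 0.13 at the low dose (adjusted p = 0.245). Its arrays split by dye, with 11 of 12 above 0 when MK-801 was in Cy3 (mean 0.26) and 4 of 12 when it was in Cy5 (mean -0.05). Over both doses it was at 0.11 ± 0.07 (n = 6), just outside the threshold (adjusted p = 0.0508) and inside it with the replicate block (adjusted p = 0.0264). The call of A_43_P13064 over both doses (0.14 ± 0.06, n = 5, adjusted p = 0.0213) was lost without the midbrain, cortex, hippocampus or hypothalamus (adjusted p = 0.0541 to 0.0984). With scanner ratios, the deposited value table and median centring this value also lost its call (adjusted p = 0.102, 0.106 and 0.303). Within the scan days of midbrain and amygdala and of hippocampus and hypothalamus it was 0.10 and 0.16, and neither passed (adjusted p = 1 and 0.364).

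Klf15 was higher than saline by a similar amount. At the high dose it had 0.26 in the midbrain, 0.11 in the amygdala, 0.28 in the ventral striatum, 0.21 in the cortex, -0.05 in the hippocampus and 0.05 in the hypothalamus. At the low dose these regions had 0.17, 0.03, 0.25, 0.22, 0.06 and 0.18. Ventral striatum, cortex and midbrain were in the upper range at the high dose, and 20 of 24 arrays were above 0. Klf15 rose at the low dose (0.15 ± 0.09, n = 6, limma adjusted p = 0.0272) and over both doses (0.15 ± 0.10, n = 6, adjusted p = 0.0355), and had 0.14 ± 0.13 at the high dose (n = 6, adjusted p = 0.134, and adjusted p = 0.0485 with the replicate block). The dose difference was -0.01 ± 0.10 (95% interval -0.09 to 0.07, adjusted p = 0.961). Its mean was 0.27 with MK-801 in Cy5 and 0.02 with MK-801 in Cy3. Over both doses the call was lost without the midbrain, ventral striatum, cortex or hypothalamus (adjusted p = 0.0729 to 0.134). The same held with array number 1 (0.07, adjusted p = 0.19) or 3 (0.10, adjusted p = 0.0501) left out. Scanner ratios (adjusted p = 0.145), the deposited value table (0.148), median centring (0.186) and offset 10 (0.0597) also ended the call over both doses. The low dose call was lost without the same 4 regions (adjusted p = 0.0786 to 0.117) and without array number 3 (0.06, adjusted p = 0.295). It was also lost with the scanner's own ratios (0.145), the deposited value table (0.149), median centring (0.0674) and offset 10 (0.0668), and within each of the 3 scan days (adjusted p = 1, 0.0613 and 0.74). Within the 3 scan days the mean over both doses was 0.14, 0.24 and 0.06, and only the day of ventral striatum and cortex passed (adjusted p = 0.862, 0.0151 and 0.954).

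**Figure D3:**
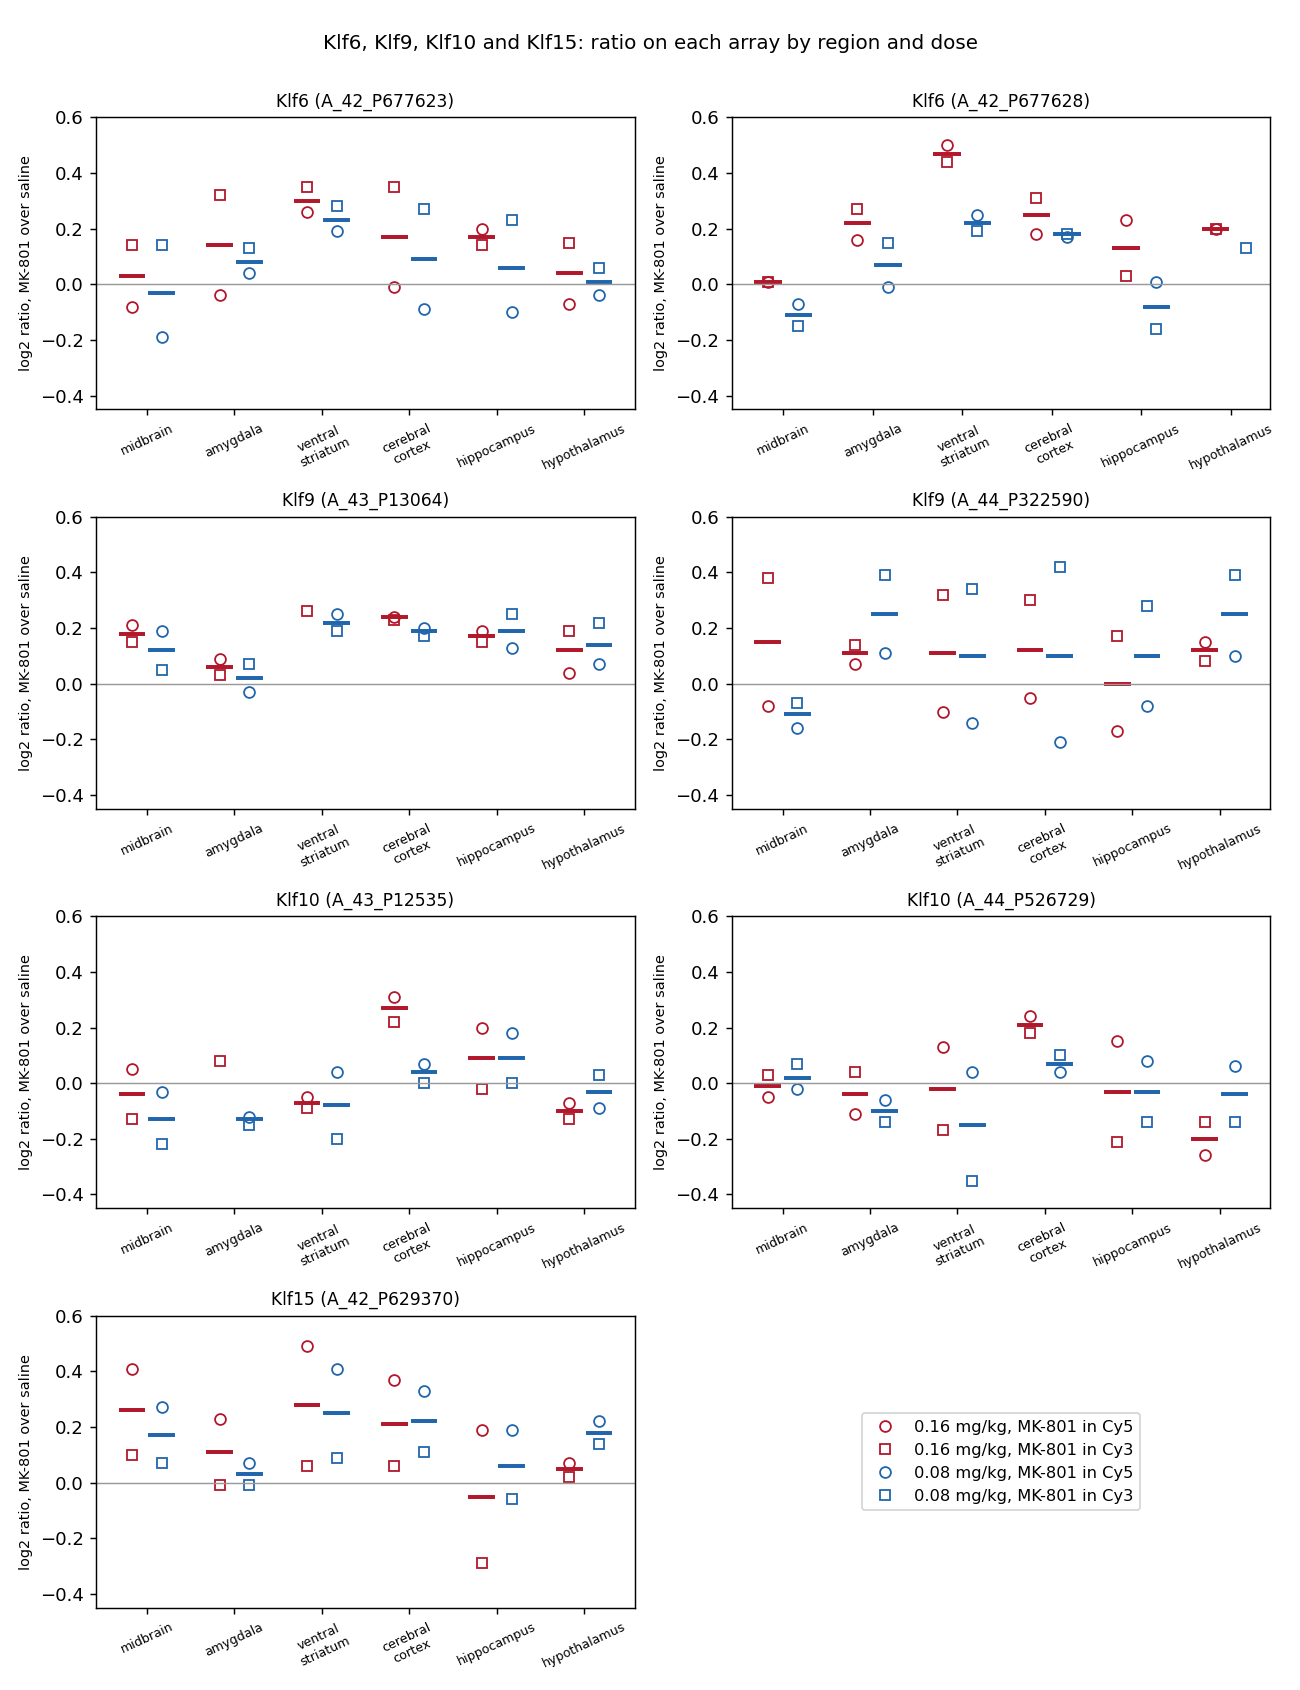
Log2 ratio of MK-801 to saline on each array for the probes of Klf6, Klf9, Klf10 and Klf15 by region (circles with MK-801 in Cy5, squares in Cy3, red 0.16 mg per kg, blue 0.08 mg per kg, bars for the mean of a dye swap). The ventral striatum is highest for Klf6, A_43_P13064 of Klf9 lies above 0 on 22 of 23 arrays, and the dyes lie apart for A_44_P322590 of Klf9 and for Klf15.

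Over the region-by-dose values, Klf2 and Klf4 followed each other most closely among the members (Pearson r = 0.98 over 11 values). Between probes of 1 gene, r was 0.85 for Klf6, 0.72 for Klf10 and -0.23 for Klf9, over 11 values each. Klf2 had r = 0.73 with A_42_P677628 and 0.68 with A_42_P677623 of Klf6, and r = 0.67 with A_43_P12535 and 0.57 with A_44_P526729 of Klf10. The same 4 probes had r = 0.78, 0.66, 0.64 and 0.48 with Klf4, and A_43_P13064 of Klf9 had r = 0.70 with A_43_P12535 of Klf10 over 10 values. Both doses of a region share its slide and the group of saline rats, and whether they share the same saline RNA is not stated. The values are a description with no test.

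The genes whose 12 values were most like those of Klf2, among 428 genes that varied by an SD of at least 0.15, were Apold1, an early response gene of endothelium (r = 0.98), Atf3, a stress-induced transcription factor (r = 0.98), and Bcl6b, a transcriptional repressor (r = 0.97). For Klf4 they were Apold1 (r = 0.99), Klf2 (r = 0.98) and Atf3 (r = 0.97) over 11 values among 429 genes. Klf6 was most like Jun (r = 0.89), an AP-1 subunit, Ccn1 (r = 0.86), a secreted matrix protein, and Btg2 (r = 0.82), an inhibitor of proliferation. The genes most like Klf10 were Hspa1a, a heat shock protein (r = 0.82), Pvr, a cell surface adhesion molecule (r = 0.78), and Ppp1r15a, a stress-induced phosphatase subunit (r = 0.78). The nearest to Klf9 were the neuropeptide genes Avp (r = 0.83) and Oxt (r = 0.81) and the phosphoinositide phosphatase Sacm1l (r = 0.70). Those nearest to Klf15 were the receptor Mrgprd (r = 0.85), the phosphodiesterase Pde1a (r = 0.84) and the transcription factor Tcf12 (r = 0.83). Klf6, Klf9 and Klf10 stand here for their brighter probes, A_42_P677628, A_43_P13064 and A_43_P12535, over 11 values each. The ratios of Klf9, Klf10 and Klf15 varied little, with an SD of 0.07, 0.12 and 0.11 over their values. These lie below the 0.15 asked of the compared genes, whereas Klf2 and Klf4 had 0.35 and 0.55. The other Klf9 probe had r = -0.23 with A_43_P13064, so the genes nearest to Klf9 rest on 1 probe.

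In the saline RNA, Klf10 differed most between regions. Levels are log2 intensities and are compared within a probe only. By A_43_P12535 its mean saline level was 13.20 in the cerebral cortex, 12.52 in the amygdala, 12.19 in the hippocampus, 11.71 in the ventral striatum, 10.56 in the midbrain and 10.53 in the hypothalamus, a 6.36-fold range. By A_44_P526729 the order was cortex (10.36), hippocampus (9.59), amygdala (9.56), ventral striatum (9.16), midbrain (8.19) and hypothalamus (7.87), a 5.62-fold range. Both probes thus had the cortex first and midbrain and hypothalamus last, and the values of amygdala and hippocampus overlapped by both. Midbrain and hypothalamus overlapped by A_43_P12535, by which the amygdala has a single value.

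Klf9 was highest in the ventral striatum by both probes, 2.69-fold above the midbrain by A_43_P13064 and 3.36-fold above the amygdala by A_44_P322590. The ventral striatum level was 13.61 (1 value) and next came the hippocampus at 13.16 by A_43_P13064, and by A_44_P322590 the ventral striatum at 11.20 led the hippocampus by 0.70. The lower regions differed in order between the probes. Hippocampus, hypothalamus, cortex and amygdala overlapped as neighbours by A_43_P13064, where the gap between the 2 values of a region reached 0.74.

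Klf6 was highest in the cerebral cortex and lowest in the ventral striatum by both probes, with a range of 2.97-fold by A_42_P677628 (14.07 to 12.50) and 2.19-fold by A_42_P677623 (9.49 to 8.36). By A_42_P677628 the regions between these were the amygdala (13.80), hypothalamus (13.57), midbrain (13.41) and hippocampus (13.14), and no neighbours overlapped, although the hypothalamus has a single value, whose spread is not known. By A_42_P677623 hypothalamus and amygdala overlapped, and so did hippocampus and ventral striatum. The region with the lowest saline level of Klf6 was also the region with its highest ratio. The saline channel is the denominator of that ratio, so level and ratio are not independent. By A_42_P677628 the saline levels of the 2 high dose arrays of the ventral striatum were 11.51 and 12.96.

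Klf2, Klf4 and Klf15 differed less between regions. Klf2 ranged 1.65-fold, from 9.37 in the hypothalamus and 9.31, 9.26, 9.22 and 9.02 in the hippocampus, cortex, amygdala and ventral striatum to 8.65 in the midbrain, and its 4 upper pairs of neighbours overlapped. Klf4 ranged 1.51-fold, from 11.35 in the midbrain to 10.76 in the hypothalamus (a single value), with the first 3 pairs of neighbours overlapping. Klf15 ranged from 12.69 in the midbrain to 12.01 in the hippocampus, and 4 of 5 pairs of neighbours overlapped. The gap between the 2 values of 1 region reached 0.55 for Klf2, 0.59 for Klf4 and 0.85 for Klf15, against ranges of 0.72, 0.59 and 0.68. Region and slide cannot be told apart in these levels.

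**Figure D4:**
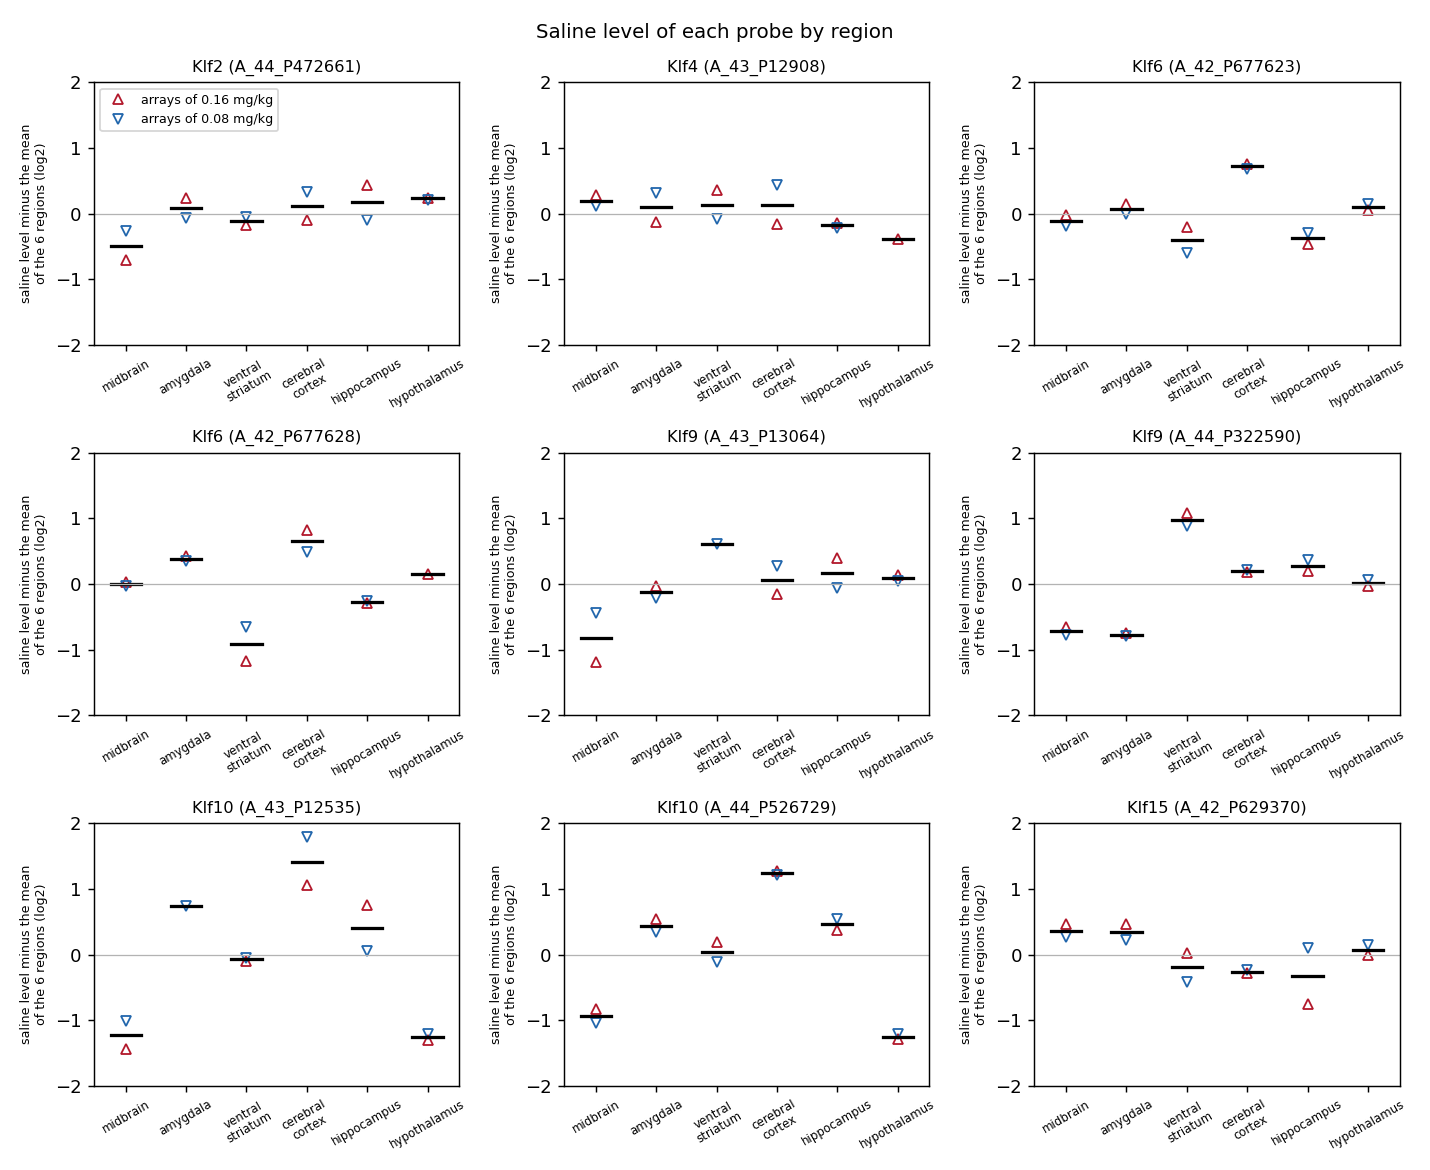
Saline level of each probe by region as log2 intensity minus the probe's mean over 6 regions, with 1 triangle for the high dose arrays (red), 1 for the low dose arrays (blue) and a bar for their mean. Klf10 is highest in the cortex, Klf9 in the ventral striatum and Klf6 in the cortex by both probes, and the triangles of Klf2, Klf4 and Klf15 overlap between most regions.

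Genes around the members were counted from lists, with a gene as its brightest kept probe. The lists were chosen with earlier results of these data known, so their counts are a description. Of the other Kruppel-like and SP factors 18 of 20 were on the array and 9 were tested, and 0 of 9 passed over both doses by limma (3 at an unadjusted p under 0.05, median -0.01, range -0.10 to 0.02). Another list held 13 genes of ERK5, MEF2 and cerebral cavernous malformation signalling, which act upstream of Klf2 and Klf4 in endothelium. Of these, 9 were on the array and 8 were tested, with Hdac5 and Hdac7 among them. Pdcd10 was the only cerebral cavernous malformation gene tested. By limma 0 of 8 passed (0 at an unadjusted p under 0.05, median 0.02). Only RNA was measured, so the activity of these proteins was not tested.

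Of 17 tested genes known as endothelial targets of Klf2 and Klf4, 1 rose and 1 fell over both doses. By limma 6 of the 17 had an unadjusted p under 0.05, and the median was -0.03. The list does not separate targets that these factors raise from targets that they lower. Its counts and median therefore give no direction of their action. For high minus low 1 of the 17 rose and 0 fell. Over both doses Nfkbia, an inhibitor of NF-kappa B, rose by 0.19 ± 0.04 (n = 6, limma adjusted p = 0.000532). Kdr, a receptor for vascular endothelial growth factor, fell by 0.24 on the log2 scale (SD 0.12, n = 6, limma adjusted p = 0.00348). Of the 13 endothelial markers, 1 rose (Slc2a1, which carries glucose into the brain, 0.13 ± 0.04, adjusted p = 0.00567) and 1 fell (again Kdr), with a median of -0.02. Of the 8 neuronal markers 0 passed over both doses by limma (0 unadjusted, median -0.02). Of the astrocyte markers 2 of 8 rose and 1 fell, of the oligodendrocyte and microglial markers 1 of 8 each rose, of the meningeal markers 1 of 8 fell (median -0.17), and of 5 choroid plexus markers 0 passed (0 unadjusted, median -0.02).

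Over both doses, 349 of all 27267 probes tested rose and 320 fell. Of 17 tested genes known to be induced by glucocorticoids, a class that includes Klf9 and Klf15, 12 rose and 0 fell (median 0.19). The 4 with the largest change were Dusp1, a phosphatase of MAP kinases (0.84 ± 0.31, n = 6, limma adjusted p = 0.000241), Sgk1, a kinase that controls ion transport (0.54 ± 0.14, n = 5), Cebpd, a transcription factor of the stress response (0.47 ± 0.34, n = 6), and Gadd45g, a growth arrest gene (0.43 ± 0.14, n = 6). Some of these are also early response genes, and Nfkbia belongs to this list as well. The list was chosen with earlier results of these data known, so its count is a description with no test. For high minus low 5 of 17 rose (median 0.10), whereas Klf9 and Klf15 had dose differences between -0.01 and 0.02.

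Of the 9 tested amino acid breakdown genes known as targets of Klf15, 0 passed over both doses by limma (1 at an unadjusted p under 0.05, median -0.02). Of 14 tested genes of the transforming growth factor beta pathway around Klf10, 1 rose, namely Id1, an inhibitor of helix-loop-helix factors (0.34 ± 0.11, n = 4, adjusted p = 0.00208 by limma), and the median was 0.00.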

How the data were processed

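Each array was deposited as 1 scanner file of Agilent Feature Extraction 9.5.3.1, per the submitters' processing notes, and per the file headers each spot carried Cy3 and Cy5 intensity, background and quality flags. The deposited value table held log10 ratios, Cy5 over Cy3, neither turned for dye swaps nor centred (column medians -0.0259 to 0). They differed from the ratio of the scanner's processed signals by at most 0.00413.

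In R 4.3.3 with limma 3.58.1 the intensity values were corrected with normexp (offset 50) and loess, without controls and flagged outliers, and turned to MK-801 over saline. Probes that passed the scanner's background test in both channels of 12 or more arrays, with 4 or more regional values, were tested against 0 (lmFit, eBayes, Benjamini-Hochberg, threshold 0.05). Saline levels used Aquantile. Names came from RefSeq (GRCr8). The fit was tested on simulated data. The number of arrays limits precision.

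The members and the lists were chosen with earlier results of these data known. All member probes were named, then at most 4 called genes per list with the largest change, and the 3 genes of highest r per member among genes whose values had an SD of at least 0.15. Array numbers follow the dose and dye given in the labels' descriptions, and differ from the numbers in the titles in hippocampus and hypothalamus. Same-numbered arrays share a dye orientation, and their deviations correlated (lowest r = 0.516). An alternative fit of single arrays, the replicate block, therefore had dye orientation as a term and region as a random block. It counts the arrays of a swap as separate observations, unlike the main fit, so its smaller p-values are no independent support for a call.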

Additional observations from a re-analysis of the deposited data

Results flagged for a closer look

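Of 36 sets of regional values of the member probes, 1 had a region far from the others. The second Klf9 probe, A_44_P322590, had a high dose log2 ratio of 0.00 in the hippocampus, where the nearest of the other 5 regions was at 0.11, and this gap took 0.724 of the whole range. Its 2 arrays there were at -0.17 with MK-801 in Cy5 and 0.17 with MK-801 in Cy3. Chance marks about 1 in 20 such sets.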

How the results depend on the processing

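Over both doses, 4 member probes passed. The count was 1 each by the deposited value table and the scanner's ratios, 2 with median centring, 7 with the replicate block, 2 of only 5 members testable with scan day as a block (without Klf4 and A_43_P13064 of Klf9), and 2 of 8 and 1 of 7 testable within the days of midbrain and amygdala and of hippocampus and hypothalamus (the last without Klf4). At the high dose it was 4, against 2 each with scanner ratios, value table, median centring, offset 10, an intensity trend with robust prior, and within these 2 days. At the low dose it was 3, against 0 with scanner ratios and value table, 1 with median centring and 1 with offset 10, and 0 and 1 within these days. For high minus low it was 2, against 1 with all 6 regions required (which leaves out Klf4), 1 with scan day as a block (likewise), and 1 and 0 within these days. With 1 region or array number left out, the counts ranged from 2 to 5, 2 to 6, 1 to 4 and 2 to 5. Leaving out an array number leaves 1 dye orientation for a dose, so the dye effect no longer cancels, and 4242 to 5711 probes then passed over both doses. All probes called over both doses numbered 669, against 352 (scanner ratios), 346 (value table), 366 (median centring), 1410 (replicate block), 94, 311 and 91 (within days) and 400 without the cortex and 433 without the ventral striatum.

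Klf2 kept its direction and call over both doses in 23 of 24 alternatives (0.47 to 0.97) and Klf4 in 18 of 21 (0.57 to 1.27). Klf9 (A_43_P13064) and Klf15 kept theirs in 12 of 21 and 12 of 24. The dose difference of Klf9 (A_44_P322590) turned from -0.01 to 0.17 (adjusted p = 0.0435) without array number 4, and ranged from -0.19 to 0.17 with 1 array number or region left out. The replicate block ended no call of a member. The region of highest saline level was that of all arrays for 5 of 8 comparable probes with the high dose arrays alone and for 7 to 8 of 9 in the other 5 settings. The cause of the other shifts was not tested. Every member probe was well above background on all 24 arrays.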
